A study of Mus musculus with 27 samples.

Results

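Oxidative phosphorylation subunits are the proteins of the mitochondrial respiratory chain and of ATP synthase, and 71 genes for them were followed here among the 8251 genes that the array measures. The members were chosen by name, from probe sets with a single gene symbol on the platform. They are the symbols that begin with Nduf, Uqcr or Atp5, the succinate dehydrogenase genes Sdha, Sdhb, Sdhc and Sdhd, the cytochrome c gene Cycs, and the nuclear cytochrome c oxidase genes Cox4 to Cox8 without Cox6b2. Each gene was represented by its brightest probe set over all arrays. By complex, the members are 29 subunits and 2 assembly factors of complex I, 4 subunits of complex II, 7 of complex III, cytochrome c itself, 14 of complex IV and 14 of complex V.

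RNA came from pancreatic islets cut out of mouse tissue by laser capture and was amplified in 2 rounds before hybridisation to 27 one-colour arrays, in 9 groups of 3. Every mouse, the untreated ones included, carried MycER and BclXL transgenes under an insulin promoter; MycER is a Myc protein that works only while 4-hydroxytamoxifen is bound to it, and BclXL is a survival protein. The groups were untreated islets, islets 2, 4, 8 and 24 h after an injection of 4-hydroxytamoxifen, islets after 21 days of daily doses, and islets 2, 4 and 6 days after such a course ended. The labels give replicate numbers without saying that they are separate mice, so p-values measure the spread between these arrays. The labels name no vehicle-injected or transgene-free group and give no age for the animals, so the drug and the injection cannot be told apart from Myc activity. The tissue is a captured section and not a pure cell population, and in such bulk RNA fewer cells of a type and less RNA per cell cannot be told apart.

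Complex I passes electrons from NADH, and complex II passes those of succinate, to ubiquinone. Complex III hands them to cytochrome c, complex IV gives them to oxygen, and complex V uses the proton gradient that results to make ATP. In beta cells this ATP closes the potassium channels that hold insulin secretion in check. Most of the subunits are encoded in the nucleus and are the genes measured here. The subunits encoded in mitochondrial DNA are not measured by this array. Myc and its partner Max bind E-box sequences, and the nuclear factors NRF1 and GABP, an ETS family protein, are known activators of respiratory chain genes.

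Promoters are printed for some of the members on which the results turn and for a gene with an E-box. Of the 71 members, 58 had a promoter in the RefSeq table of build GRCm38.p6, which spans 250 bases before to 50 bases after the start of transcription. Each is printed 5′ to 3′ on the strand of its gene, and capitals mark matches on either strand to CACGTG (the E-box), CCGGAAG (an ETS site) or GCATGCG (the NRF1 core). Ndufa6, Ndufb6 and Sdhb are shown as members that rose in several comparisons. Uqcr11 is shown because its fall at 21 days was the largest among the members, and Ndufa7 because it carries an E-box. Other members that rose in several comparisons are not shown, among them Ndufa9, called higher at 24 h, 21 days and 6 days off. Every promoter shown holds a match, whereas 27 (42.9%) of the 63 promoters of members do, so those shown do not stand for the members.
Ndufa6 (chr15:82354242-82354541, minus strand): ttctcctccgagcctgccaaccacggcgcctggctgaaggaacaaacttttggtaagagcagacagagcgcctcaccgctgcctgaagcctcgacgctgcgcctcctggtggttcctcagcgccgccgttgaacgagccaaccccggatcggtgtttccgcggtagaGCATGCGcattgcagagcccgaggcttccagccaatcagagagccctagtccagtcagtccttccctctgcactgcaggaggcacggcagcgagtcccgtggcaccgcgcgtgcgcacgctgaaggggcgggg
Ndufb6 (chr4:40279372-40279671, minus strand): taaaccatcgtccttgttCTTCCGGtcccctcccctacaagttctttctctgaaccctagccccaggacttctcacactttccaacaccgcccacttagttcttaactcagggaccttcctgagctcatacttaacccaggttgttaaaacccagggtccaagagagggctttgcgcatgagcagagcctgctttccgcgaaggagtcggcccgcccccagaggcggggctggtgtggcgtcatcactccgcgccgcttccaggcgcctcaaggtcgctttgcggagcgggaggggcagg
Sdhb (chr4:140961021-140961320, plus strand): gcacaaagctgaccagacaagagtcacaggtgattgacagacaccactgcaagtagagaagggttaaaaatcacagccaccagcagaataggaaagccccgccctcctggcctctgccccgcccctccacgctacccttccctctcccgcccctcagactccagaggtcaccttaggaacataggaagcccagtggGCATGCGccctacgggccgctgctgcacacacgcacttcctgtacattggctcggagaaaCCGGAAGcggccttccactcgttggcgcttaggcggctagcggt
Uqcr11 (chr10:80406772-80407071, minus strand): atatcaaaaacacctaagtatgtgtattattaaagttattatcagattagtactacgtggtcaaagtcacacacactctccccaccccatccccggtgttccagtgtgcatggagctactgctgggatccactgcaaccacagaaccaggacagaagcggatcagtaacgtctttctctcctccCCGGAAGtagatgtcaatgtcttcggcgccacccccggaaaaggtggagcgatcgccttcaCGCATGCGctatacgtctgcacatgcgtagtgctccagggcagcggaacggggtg
Ndufa7 (chr17:33824322-33824621, plus strand): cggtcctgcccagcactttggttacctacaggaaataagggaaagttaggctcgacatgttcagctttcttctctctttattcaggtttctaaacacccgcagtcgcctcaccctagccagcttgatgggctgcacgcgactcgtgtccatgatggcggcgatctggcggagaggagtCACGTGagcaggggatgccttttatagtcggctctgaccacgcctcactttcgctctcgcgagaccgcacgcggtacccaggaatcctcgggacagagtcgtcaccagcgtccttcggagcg

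Ndufa6 and Sdhb hold an NRF1 core, Ndufb6 and Sdhb an ETS site, and Uqcr11 an ETS site and an NRF1 palindrome that matches on both strands. Over the 63 promoters of the 58 members, 16 (25.4%) held the ETS letters, against 11.6% of the 21262 promoters of protein-coding genes and 8.86% of all 32851 promoters in the table. The NRF1 core stood in 12 (19%) of the 63, against 4.44% of protein-coding and 3.58% of all promoters. The E-box stood in 6 (9.52%), against 7.84% of protein-coding and 7.15% of all promoters; 2 of the 6 are overlapping starts of Ndufa7. The 9 promoters of members higher at 21 days had 2 with each motif, and the E-boxes among them were those of Ndufa7. The 5 promoters of members lower at that time had none with an E-box and 2 with each of the other motifs. No such letters were found in these windows of Atp5o and Ndufv2. A match of letters describes the sequence and does not show that a factor binds there.

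Against this background, 37 of the 71 members passed the test in at least 1 of 11 comparisons and 34 in none. A member was called at an adjusted p under 0.05 from limma, with the adjustment over all 12422 probe sets, and changes are on the log2 scale, where 1 is a doubling. The broad pattern over the arrays was as follows. No member was called in the first 8 h, which is near the share of all probe sets, at most 1.7%. A set of members from several complexes was higher at 24 h. After 21 days some members stood above and others below their untreated levels. At 4 days off 8 members were higher than at 21 days, a count that ran from 0 to 11 with 1 array left out. Calls over all probe sets ran from 1 to 1071 in those fits. The share of members called lower at 21 days and at 6 days off was near that of all probe sets.

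**Figure D1:**
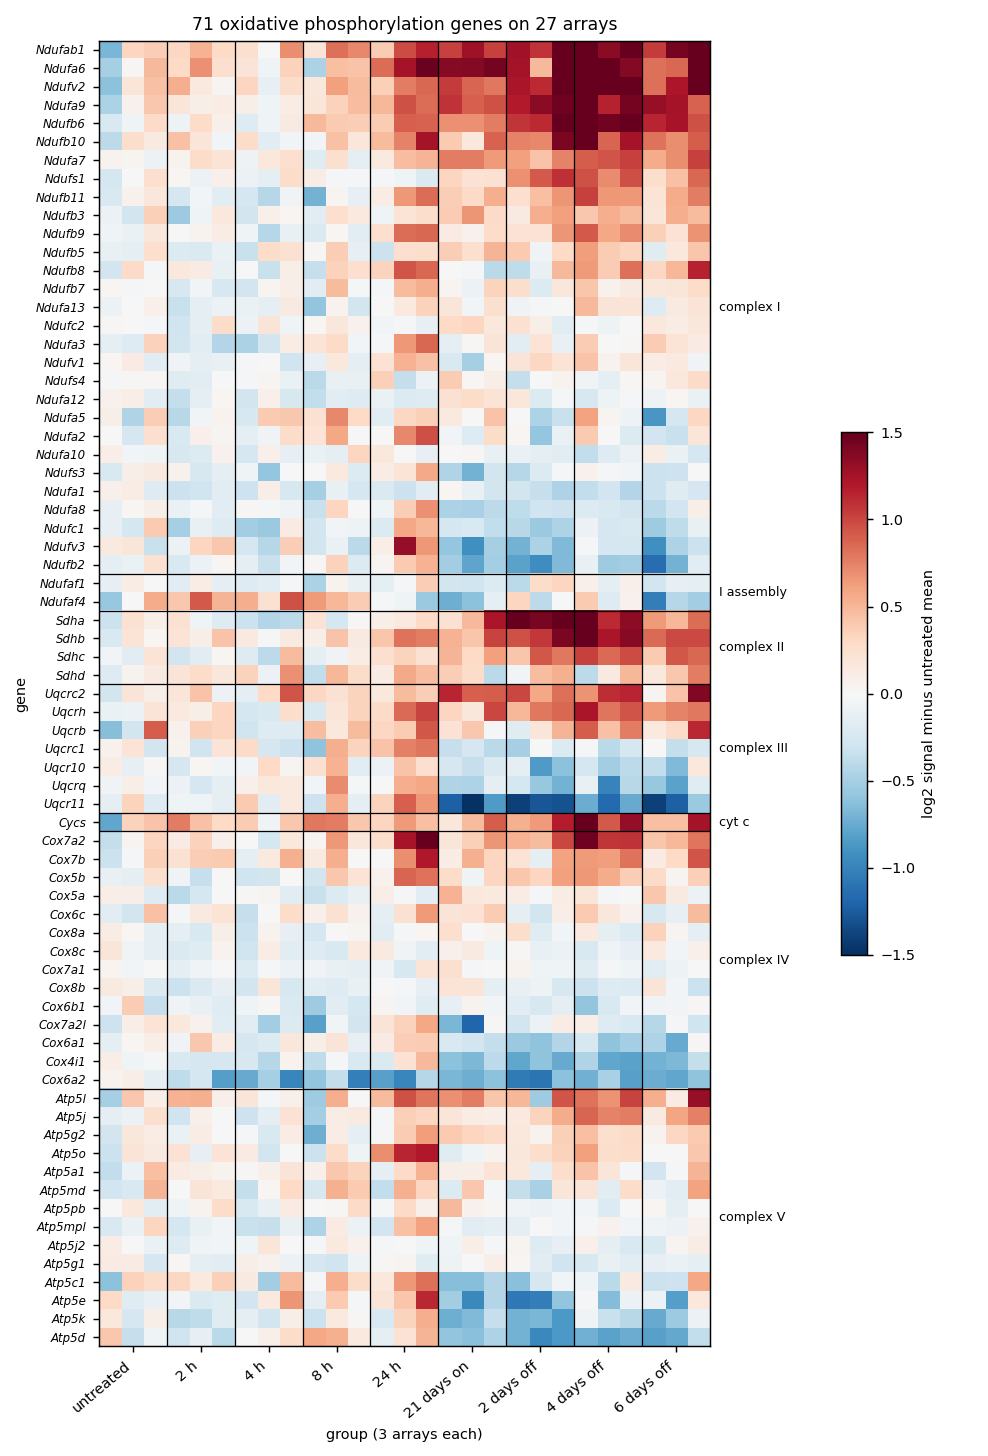
Log2 signal of each of the 71 genes (rows, by complex) on each of the 27 arrays (columns, 3 per group), minus the mean of the untreated arrays; colours are cut at 1.5 in either direction. Columns up to 8 h are pale, the second and the third 24 h arrays are red over several complexes, and from 21 days on Ndufa6, Ndufab1 and Sdhb are red while Uqcr11 and Atp5d are blue.

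Array quality can be given in brief. Arrays had median log2 signals of 6.91 to 7.01, and r across probe sets was 0.957 to 0.992 for pairs within a group. The first untreated array stood apart from the other 2 for these genes. Its mean over the 71 members was 8.60, against 8.76 and 8.85, and its Cycs signal was 5.47, against 6.59 and 6.68. Its mean over 20 acinar markers, genes of the digestive enzyme cells that surround islets, was 10.45, against 7.94 and 8.47. Counts against untreated islets are therefore given with and without it. Mean signals of bacterial control probe sets, which match no mouse transcript, reached 7.14, and 12 members had a mean at or below that value: Cox7a1, Cox8a, Cox5a, Atp5j2, Ndufs4, Sdha, Ndufc2, Ndufa12, Atp5pb, Ndufv3, Ndufaf4 and Cycs. That value comes from 1 control and lies above the array medians, and the other controls had means of 3.58 to 5.68. Of the 12, Cox7a1, Cox8a, Cox5a, Atp5j2 and Ndufs4 lay within that lower range, and the rest between it and 7.14. The signal of all 12 is not shown to lie above background, so small differences in them carry little weight.

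Early after activation no change in the respiratory chain genes passed the test. None of the 71 members was called at 2, 4 or 8 h by limma, where 0.394%, 0.797% and 1.7% of all probe sets were called. No call among 71 genes is near shares of that size. By direction the shares were 0.346% higher and 0.0483% lower at 2 h, 0.499% and 0.298% at 4 h, and 1.07% and 0.628% at 8 h. At an unadjusted p under 0.05, 3 members passed at 2 h, 2 at 4 h and 8 at 8 h. The share of all probe sets passing there was not counted, so nothing is read from these counts. The median change of the members was -0.07 at 2 h, -0.04 at 4 h and 0.05 at 8 h, and the medians of all probe sets were -0.07, -0.02 and -0.06. Largest among the falls at all 3 times was that of Cox6a2, the isoform of cytochrome oxidase subunit 6a typical of heart and skeletal muscle. Its signal was 9.16, 9.21 and 8.96 on the untreated arrays, 8.73, 8.85 and 8.28 at 2 h, 8.36, 8.61 and 8.13 at 4 h, and 8.52, 8.75 and 8.08 at 8 h. Every early array lay below every untreated one, and the changes of -0.49, -0.74 and -0.66 had adjusted p of 0.270, 0.0561 and 0.0661. Without replicate 2 at 4 h it was called (-0.865), as it was without replicate 2 at 8 h (-0.81). The largest rises were those of Ndufaf4, a complex I assembly factor, at 0.61 at 2 h and 0.58 at 4 h, and of Cycs at 0.66 at 8 h; none passed the test, with adjusted p of 0.369, 0.526 and 0.263.

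At 24 h, 8 of the 71 members were called, 7 higher and 1 lower, where 1.38% of all probe sets were called, 1.21% higher and 0.169% lower. Signals were above the untreated mean for 56 members, with a median change of 0.30 against -0.04 for all probe sets. The 7 that rose belonged to complexes I, II, IV and V. Atp5o, the subunit that ties the catalytic head of ATP synthase to its outer stalk, had signals of 9.89, 10.33 and 10.39 at 24 h, against 8.87, 9.38 and 9.32 in untreated islets. The groups did not overlap, and the rise of 1.01 ± 0.17 (SE) had an adjusted p of 0.00288. Cox7a2, the isoform of cytochrome oxidase subunit 7a found in most tissues, rose by 1.0 ± 0.25 with an adjusted p of 0.0456. Its 24 h signals were 9.22, 10.19 and 10.46 and its untreated signals 8.60, 8.99 and 9.27, so that the first 24 h array overlapped with untreated islets.

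In complex I, 4 of 29 members rose at 24 h, all of them accessory subunits that surround the catalytic core. Ndufa6 had signals of 7.35, 7.76 and 7.99, against 6.02, 6.53 and 7.0, and rose by 1.18 ± 0.29 with an adjusted p of 0.0423. Its untreated mean, 6.52, lay under the highest bacterial control mean, so the sizes of its rises against untreated islets are not reliable. Ndufa9, which lies where the matrix arm meets the membrane arm, rose by 0.77 ± 0.17 with an adjusted p of 0.0227. Ndufb6 and Ndufb9, both of the membrane arm, rose by 0.72 and 0.65. In all 4 genes every 24 h array lay above every untreated one. Sdhb, the iron-sulfur subunit of succinate dehydrogenase, had signals of 9.41, 9.80 and 9.76 at 24 h and of 8.76, 9.19 and 9.02 in untreated islets, without overlap, and rose by 0.67 ± 0.16 with an adjusted p of 0.0427. All 7 members of complex III lay above the untreated mean, with a median of 0.54, and none was called. Cox6a2 was the member that fell, by 0.74 ± 0.18 with an adjusted p of 0.0409.

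**Figure D2:**
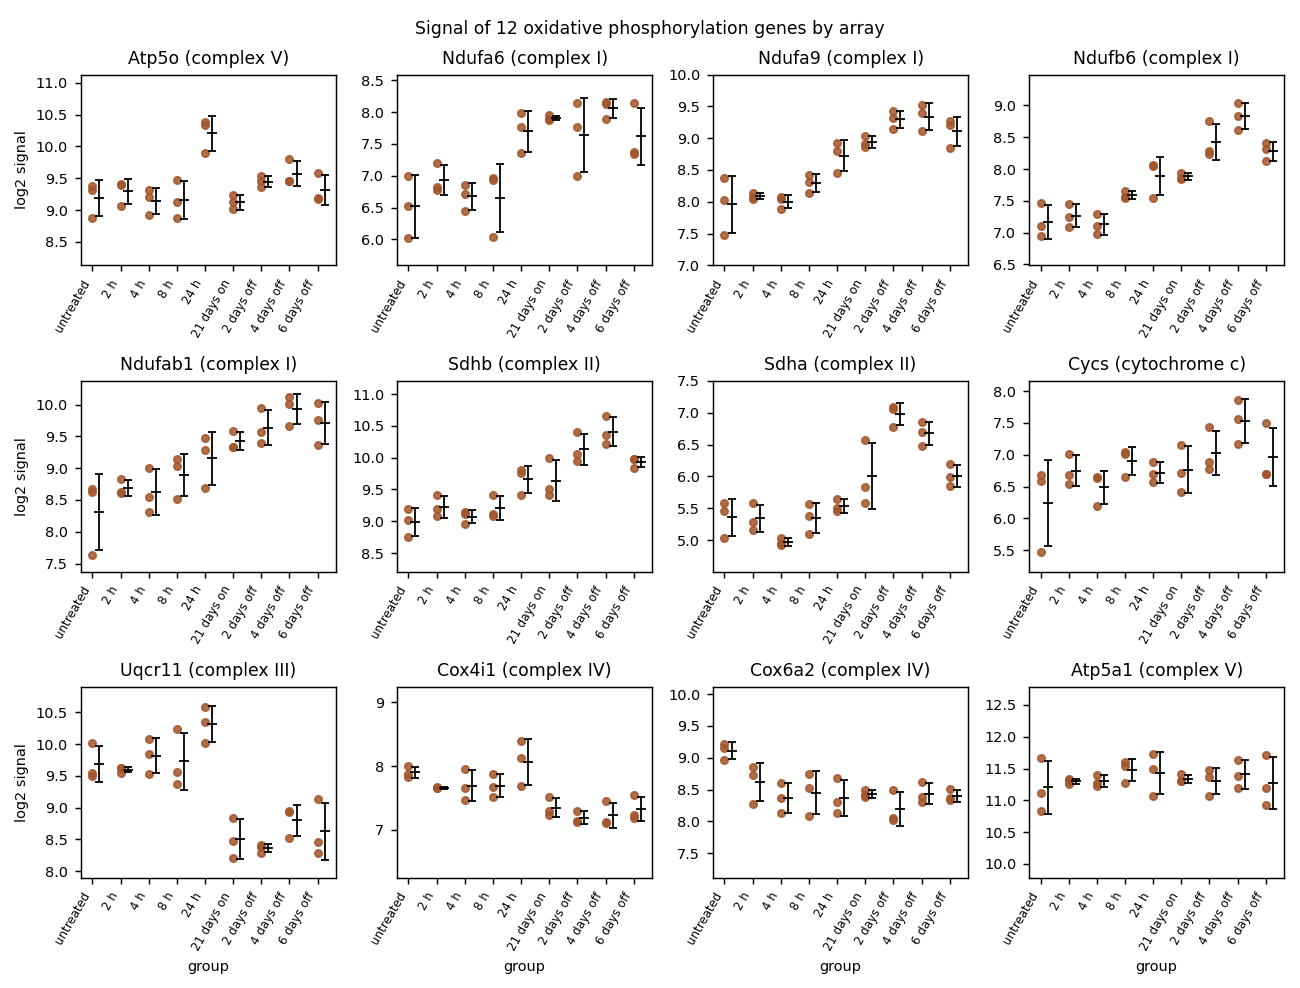
Log2 signal of 12 genes on each of 27 arrays by group (points, 3 arrays per group), with the group mean and SD (n = 3) as black marks beside them; every panel spans 3 log2 units, each around its own level. Atp5o stands highest at 24 h (9.89 to 10.39), Ndufb6 climbs to 8.62 to 9.03 at 4 days off, Uqcr11 drops to 8.21 to 8.84 at 21 days, and Atp5a1 keeps overlapping signals throughout.

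The calls at 24 h rested on few arrays. Without the first untreated array Atp5o alone was called (0.85), without the second Atp5o and Sdhb, and without the third 5 members. Leaving out the second 24 h array left Atp5o, leaving out the third left Atp5o and Cox6a2, and leaving out the first, whose mean over the members was 8.82 against 9.14 and 9.22, gave 12. The mean acinar marker level was 10.96 to 11.50 at 24 h and 7.94 to 10.45 in untreated islets, and 2 of the 20 acinar markers were called higher (median 2.22). With acinar and leukocyte marker means as covariates, Atp5o (1.16) and Ndufa9 (1.03) were called, and calls over all probe sets went from 171 to 39. Mitosis genes also moved at 24 h, with 20 of 35 called higher. Set directly against 8 h, 24 h islets had 4 members called, all higher, where 1.8% of all probe sets were called, 1.09% higher and 0.7% lower. They were Atp5o at 1.05, Ndufb11 at 0.80, Ndufb9 at 0.77 and Ndufv3, an accessory subunit of the NADH-binding arm, at 0.95 from an 8 h signal within the range of the bacterial controls. Leaving out the first 8 h array, or the second or the third 24 h array, left Atp5o alone, and leaving out the first 24 h array gave 7. Calls over all probe sets, 223 with all arrays, were 50, 98, 58 and 148 in these fits, in that order. Gapdh 3′ minus 5′ signals did not overlap, at 4.5 to 4.94 at 8 h and 3.70 to 3.90 at 24 h, and with them as a covariate 1 member was called. Calls over all probe sets went from 223 to 54 with that covariate. Of the duct markers 3 of 13 were called higher, none of the 20 acinar markers was called (median 1.39), and 12 of 35 mitosis genes were higher.

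After 21 days of daily dosing, 15 of the 71 members differed from untreated islets, 9 higher and 6 lower, where 14.6% of all probe sets were called, 7.27% higher and 7.37% lower. The median change was 0.09, against 0.04 for all probe sets. By complex, without a test of the difference between complexes, complex I had 6 called higher and 1 lower of 29, complex II had 2 higher of 4, and complex III had 1 of each among 7. Complexes IV and V had 2 called lower each, of 14, and none higher.

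Among the members that were higher at 21 days, Ndufa6 had signals of 7.88, 7.89 and 7.95, a rise of 1.39 ± 0.29 with an adjusted p of 0.00304. The size of that rise is not reliable, as its untreated mean, 6.52, lay under the highest bacterial control mean. Ndufab1, the mitochondrial acyl carrier protein, which is also a complex I subunit, had signals of 9.34, 9.59 and 9.34 against 7.63, 8.63 and 8.68. It rose by 1.11 ± 0.26 with an adjusted p of 0.00667, and its untreated arrays spread widely because of the first. Ndufa9 rose by 0.98, and Ndufb6 by 0.71. Ndufv2, a core subunit with an iron-sulfur cluster near the NADH site, rose by 0.90, and another of its probe sets rose by 0.54 with an adjusted p of 0.0251. Ndufa7, an accessory subunit, had signals of 11.82, 11.82 and 11.69 at 21 days and of 11.10, 11.09 and 10.96 in untreated islets, with little spread in either group. That rise was 0.73 ± 0.13 with an adjusted p of 0.00110. Sdhb rose by 0.65 and Uqcrc2, a core protein of complex III, by 0.98 with an adjusted p of 0.0159. Sdha, the flavin subunit of succinate dehydrogenase, rose by 0.65 with an adjusted p of 0.0300, but its signals of 5.59, 5.84 and 6.58 touched the untreated range of 5.03 to 5.59 and lay in that of the bacterial controls.

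The largest fall at 21 days was that of Uqcr11, a small subunit of complex III. Its signals were 8.47, 8.21 and 8.84, against 9.55, 10.02 and 9.50 in untreated islets. The groups lay far apart, and the fall was 1.18 ± 0.23 on the log2 scale (-1.18) with an adjusted p of 0.00188. Cox6a2 had signals of 8.42, 8.38 and 8.49 and a change of -0.68 ± 0.18 with an adjusted p of 0.0145. Striated muscle markers had a mean of 6.44 to 6.55 at 21 days and of 6.38 to 6.61 in untreated islets, and 2 of 22 were called lower. Smaller falls were called for Atp5k (-0.58), a membrane subunit of ATP synthase, Atp5d (-0.56), the delta subunit of its rotating stalk, Cox4i1 (-0.56), the usual isoform of the largest nuclear cytochrome oxidase subunit, and Ndufb2 (-0.61). For 3 of these the result depended on the probe set. A second Cox4i1 probe set changed by -0.05 (and by 0.08 against 24 h), and 2 of the other 4 for Atp5d had positive changes, of 0.43 and 0.61, the latter called. The 3 other probe sets of Ndufb2 changed by -0.25, 0.50 and -0.59.

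Without the first untreated array 9 members were called at 21 days, 7 of them among the 15, and calls over all probe sets went from 1819 to 1305. The 7 were Ndufa6 (1.14), Ndufa7 (0.75), Ndufa9 (0.74), Ndufab1 (0.77), Ndufb6 (0.60), Cox6a2 (-0.66) and Uqcr11 (-1.25), and the 2 added were Atp5c1 and Ndufs3. Mean acinar marker levels were 7.25 to 7.73 at 21 days, below every untreated array, though none of the 20 markers was called (median -1.74). With acinar and leukocyte means as covariates, 10 of the 15 were called and 1 more member was added, and calls over all probe sets went from 1819 to 1404. The 3′ minus 5′ signal of the Gapdh control probe sets, which reads RNA integrity and amplification, was 4.77 to 4.92 at 21 days and 3.65 to 5.67 in untreated islets.

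**Figure D3:**
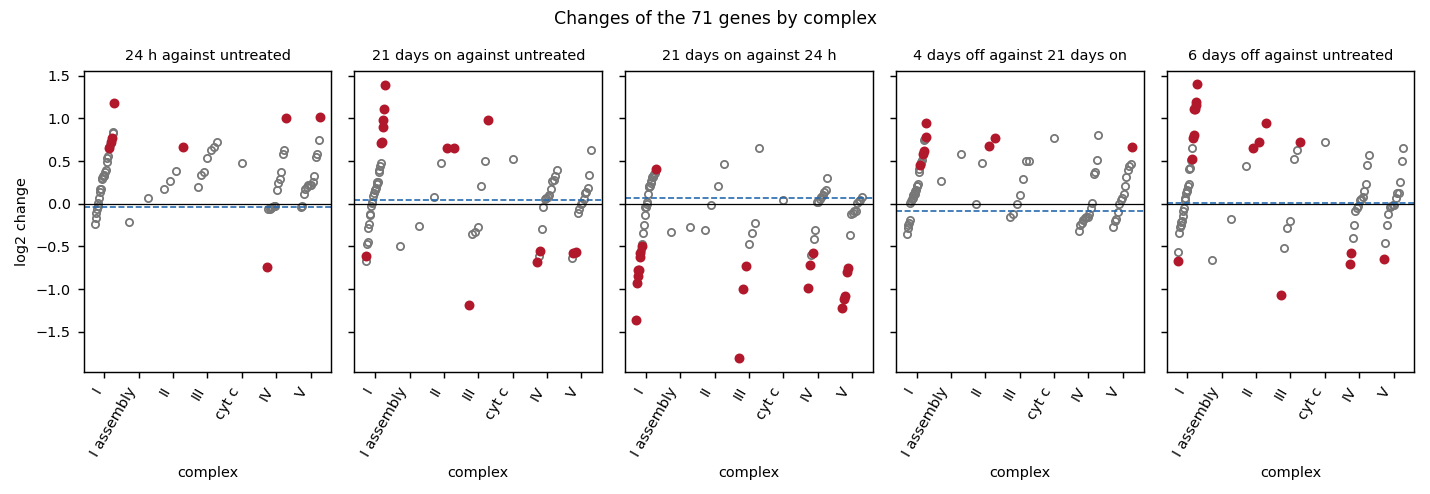
Log2 change of each of the 71 genes in 5 comparisons (panels), grouped by complex on the horizontal axis; filled red points passed an adjusted p under 0.05, open points did not, and the dashed blue line is the median of all 12422 probe sets. Red points lie above 0 at 24 h apart from 1, on both sides at 21 days against untreated, below 0 apart from 1 at 21 days against 24 h, and above 0 at 4 days off against 21 days.

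Sustained and acute activation were also compared directly, 21 days against 24 h. Here 20 members were called, 19 lower and 1 higher, where 20.8% of all probe sets were called, 9.23% lower and 11.6% higher. The median change of the members was -0.11, and that of all probe sets 0.07. Uqcr11 was 1.81 ± 0.23 lower (-1.81) with an adjusted p of 3.37e-05. Its signals were 10.02, 10.59 and 10.34 at 24 h, and the 21 day arrays all lay more than 1 log2 unit below the lowest of them. In ATP synthase 5 of 14 members were lower, among them all 3 measured subunits of the rotating central stalk: Atp5c1 (-1.12), the gamma subunit, Atp5d (-0.76) and Atp5e (-1.22), the epsilon subunit. The 21 day mean of Atp5e, 7.07, lay under the highest bacterial control mean, so the size of its fall is not reliable. A second Atp5c1 probe set changed by -1.30 and was called, whereas a less bright one for Atp5d changed by 0.59 and was called in the opposite direction. Atp5o was 1.08 lower (-1.08), with signals of 9.01, 9.12 and 9.24 at 21 days that fell within the untreated range, and Atp5k changed by -0.80.

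Falls in complex I included Ndufv1, the core subunit that binds NADH and flavin, at -0.63, Ndufs3, a core subunit of the matrix arm, at -0.77, and Ndufv3 at -1.36. The 21 day mean of Ndufv3, 6.23, lay under the highest bacterial control mean, so the size of its fall is not reliable. Ndufa8, Ndufb2, Ndufb8, Ndufb9 and Ndufc1, accessory subunits, changed by -0.78, -0.93, -0.85, -0.50 and -0.58. Ndufa12 was the member called higher, at 0.40, from a signal in the range of the bacterial controls. Complex III added Uqcrc1 (-0.99), a core protein, and Uqcrq (-0.73). Complex IV added Cox4i1 (-0.72), Cox6a1 (-0.58), the isoform of subunit 6a in most tissues, and Cox7a2l (-0.99), a protein known to join complexes III and IV. No member of complex II was called.

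Acinar RNA differed between these groups too: 17 of the 20 markers were called lower at 21 days (median -4.14), and the array means of 7.25 to 7.73 lay far below 10.96 to 11.50. Of the defining acinar markers, Cel had a mean of 13.29 at 24 h and 8.77 at 21 days, and Ctrb1 of 13.42 and 9.03. With acinar and leukocyte means as covariates, Atp5o (-1.33), Ndufb2 (-1.12) and Uqcr11 (-1.76) were called, and calls over all probe sets went from 2587 to 207. The 17 members no longer called had the direction given above under that fit, from -1.27 for Cox7a2l to -0.54 for Atp5k, and 0.49 for Ndufa12. Gapdh 3′ minus 5′ signals were 3.70 to 3.90 at 24 h and 4.77 to 4.92 at 21 days, and with that difference as a covariate 19 members were called, 17 of them among the 20.

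**Figure D4:**
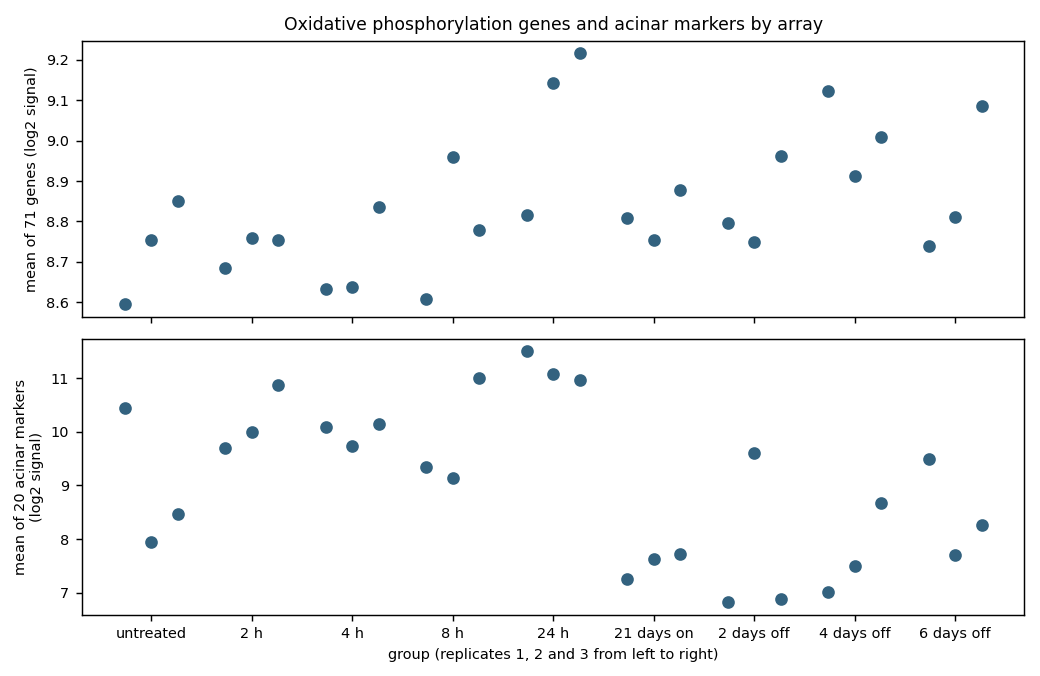
Mean log2 signal of the 71 genes (upper panel) and of 20 acinar markers (lower panel) on each of 27 arrays, 3 per group. The acinar mean is 10.96 to 11.50 at 24 h and 7.25 to 7.73 at 21 days, and the member mean is 8.82 to 9.22 at 24 h and 8.75 to 8.88 at 21 days.

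After withdrawal of the drug, 1, 8 and 0 members were called against 21 days, at 2, 4 and 6 days off. At 2 days off 1 member was called against 21 days, where 0.153% of all probe sets were called, 0.145% higher and 0.00805% lower. The median change of the members was -0.09, against -0.07 for all probe sets, and with the Gapdh difference as a covariate it was 0.085. It was Sdha, with signals of 7.09, 6.78 and 7.06, all above those at 21 days, and a fitted change of 0.97 ± 0.20 with an adjusted p of 0.0451. Both groups' mean signals lay under the highest bacterial control mean, so the size of that change is not reliable. Its call was lost without the first or the second 21 day array and without any 1 of the arrays at 2 days off. Without the first of the latter Ndufs1 was called in its place, and without the last 21 day array Sdha and Ndufv1 were called. At an unadjusted p under 0.05, 7 members were higher and 1 lower, but the share of all probe sets at that threshold was not counted.

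At 4 days off 8 members were higher than at 21 days and none was lower, where 6.01% of all probe sets were called, 3.58% higher and 2.42% lower. The median of the members was 0.15 and that of all probe sets -0.09, and with the Gapdh 3′ minus 5′ difference as a covariate the members' median was 0.278. Ndufb6 had signals of 9.03, 8.62 and 8.84, against 7.85, 7.86 and 7.94 at 21 days, and rose by 0.95 ± 0.16 with an adjusted p of 0.00846. Sdhb had 10.66, 10.22 and 10.35, against 9.51, 9.41 and 10 at 21 days, and rose by 0.77 ± 0.16 with an adjusted p of 0.0154. In both genes all arrays at 4 days off lay above all at 21 days. The core subunits of the complex I matrix arm Ndufs1 (0.62), Ndufv1 (0.45) and Ndufv2 (0.78) were among the rest, with Ndufb9 (0.58), Sdha (0.67) and Atp5j (0.67), a subunit of the outer stalk of ATP synthase. Leaving out 1 array left between 0 and 11 calls. The count was 0 without the first array at 4 days off, 3 without the second and 2 without the third, 11 without the last 21 day array, and 1 without either the first or the second 21 day array. The mean acinar level was 7.02 to 8.67 at 4 days off and 7.25 to 7.73 at 21 days. Gapdh 3′ minus 5′ signals did not overlap, at 3.46 to 4.06 and 4.77 to 4.92, and with them as a covariate 4 members were called. Calls over all probe sets went from 746 to 397 with that covariate. Leukocyte markers had none of 51 called, with 46 below 0 (median -0.20), 3 of 27 beta cell genes were higher and 4 of 35 mitosis genes lower. At 6 days off no member was called against 21 days, where 0.274% of all probe sets were called, 0.0966% higher and 0.177% lower. By limma, 3 members were higher and 1 lower there at an unadjusted p under 0.05, and the share of all probe sets at that threshold was not counted.

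The array means of the 4 complex II genes were 8.10 to 8.42 in untreated islets, 8.52 to 8.76 at 24 h, 8.67 to 8.91 at 21 days, 9.07 to 9.41 at 2 days off, 9.13 to 9.35 at 4 days off and 8.81 to 9.16 at 6 days off. No array from 24 h on fell within the untreated range, and the highest means were those at 2 and 4 days off. The 4 genes did not share this course. Sdhd had signals of 9.31, 9.55 and 9.64 in untreated islets, 9.87, 9.78 and 9.09 at 21 days and 9.11, 9.63 and 10 at 4 days off, with overlap. Sdha, whose signal is not shown to lie above background, went from a mean of 5.36 in untreated islets to 6.98 at 2 days off. Without the first untreated array no complex II gene was called at 24 h or at 21 days. Complex V gave no such order: its array means were 8.91 to 9.14 in untreated islets, 9.05 to 9.54 at 24 h, 8.93 to 8.97 at 21 days and 8.88 to 9.33 at 6 days off. Complex III reached 9.93 to 10.38 at 24 h and 9.57 to 9.76 at 21 days, against 9.57 to 9.82 in untreated islets. These means are descriptions of the signals, without a test.

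**Figure D5:**
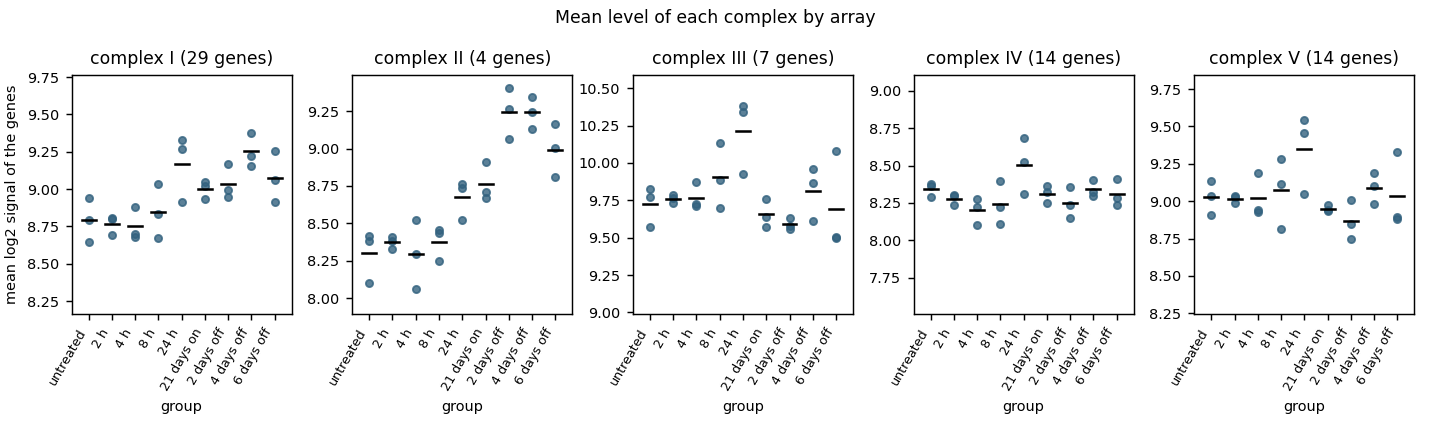
Mean log2 signal of the genes of each complex on each array (points, 3 arrays per group; bars are group means); every panel spans 1.6 log2 units. Complex II climbs from 8.10 to 8.42 in untreated islets to 9.07 to 9.41 at 2 days off, while complexes III, IV and V are highest at 24 h and lie near their untreated levels at 21 days.

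Islets 6 days off the drug were compared with untreated islets as well. Of the 71 members 17 differed, 12 higher and 5 lower, where 11.7% of all probe sets were called, 4.79% higher and 6.93% lower. This comparison shares the untreated arrays with that of 21 days, so the values are set side by side only. Ndufb10, Ndufs1, Sdhc and Uqcrh were called here and not at 21 days. Ndufab1 was at 1.4 (1.11 at 21 days), Ndufv2 at 1.19 (0.90), Ndufa9 at 1.15 (0.98), Ndufb6 at 1.11 (0.71), Ndufa6 at 1.10 (1.39) and Sdhb at 0.94 (0.65). Ndufa9 had signals of 9.27, 9.21 and 8.85, against 7.48, 8.03 and 8.37, without overlap, and an adjusted p of 0.000310. Of the 4 complex II genes 3 were called, with Sdhc, a membrane anchor, at 0.73 and Sdha at 0.65; Sdhd, the other anchor, was at 0.45 with an adjusted p of 0.290. Ndufb10 (0.81), Ndufa7 (0.76), Ndufs1 (0.52) and Uqcrh (0.72), the hinge protein of complex III, made up the rest of the rises.

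Uqcr11 remained low at 6 days off, with signals of 8.29, 8.46 and 9.13, a change of -1.06 ± 0.23 and an adjusted p of 0.00506. Cox6a2 was at -0.71, Ndufb2 at -0.67, Atp5d at -0.65 and Cox4i1 at -0.58. The third 6 day array was the closest to untreated islets for Uqcr11. Without the first untreated array 10 members were called, 9 of them among the 17, and without the second 6 day array 11, all among the 17. Calls over all probe sets went from 1456 to 778 and 1014 in these fits. Ndufa6 lost its call without the first untreated array (0.86, adjusted p of 0.103), whereas Sdhb (0.83) and Ndufb6 (0.995) were called. A fit of the 6 arrays alone called no member, and calls over all probe sets went from 1456 to 37.

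Complex IV has several subunits with tissue isoforms. The muscle isoform Cox6a2 was called lower in the comparisons of 24 h, 21 days and 6 days off with untreated islets, while Cox6a1 was at -0.29 at 21 days and -0.40 at 6 days off against untreated islets, neither called. Cox7a2 rose at 24 h and was at 0.40 at 21 days, not called, and the muscle isoform Cox7a1 had signals of 3.66 to 4.14 over all arrays, in the range of the bacterial controls. Cox8a and Cox5a lay in that range too. Cox8b had changes from -0.22 to 0.08 against untreated islets in the 6 comparisons made, and none was called. Cox5b was at 0.59 at 24 h with an adjusted p of 0.175. Differences between isoforms were not tested.

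Other panel members gave no call. Atp5a1, the alpha subunit of the ATP synthase head, had signals of 10.84, 11.12 and 11.66 in untreated islets and of 11.30, 11.31 and 11.41 at 21 days, and its changes against untreated islets ran from 0.07 to 0.27. The ring subunit genes Atp5g1 and Atp5g2 were at 0.01 and 0.33 at 21 days. Cycs, which carries electrons from complex III to complex IV, was at 0.52 at 21 days and 0.72 at 6 days off, with adjusted p of 0.238 and 0.109. Without the first untreated array these changes were 0.13 and 0.33, and that at 8 h was 0.27. Its rise at 4 days off against 21 days was 0.76, with signals of 7.86, 7.17 and 7.56 against 6.42, 6.72 and 7.16, and had an adjusted p of 0.0956.

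Among genes that serve the same chain, single genes were called early. Of 19 assembly factors of the complexes, 1 was called at each of 2, 4, 8 and 24 h, and each time it was Phb2, a prohibitin that forms a scaffold in the inner membrane. Its changes were 0.94, 1.26, 1.33 and 1.05, with adjusted p of 0.0202, 0.00122, 0.000537 and 0.00315. Pdk1, a kinase that shuts down pyruvate dehydrogenase, was the gene called among 25 of pyruvate oxidation and the citric acid cycle at 4 h (1.48) and 8 h (1.60). At 21 days 4 of those 25 were higher and 6 lower. Those higher were Pdk1 (1.34), the related kinases Pdk3 (0.85) and Pdk4 (0.60), and Glud1 (0.65). Those lower were the cycle enzymes Idh3g (-0.97), Ogdh (-0.82), Idh2 (-0.75), Dlst (-0.57) and Fh1 (-0.47), and Pcx (-0.67), pyruvate carboxylase.

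Among 23 regulators of mitochondrial genes 6 were higher and 2 lower at 21 days against untreated islets. Pprc1, a coactivator of the PGC-1 family, fell furthest (-1.92, adjusted p of 4.68e-05), while Esrra (0.73), Tfb2m (0.76), Polg2 (0.62), Gabpb1 (0.56), the beta partner of the ETS factor GABP, and Tfam (0.32) were higher. Of 17 genes of ubiquinone, heme and iron-sulfur synthesis 1 was higher, Alas1 (1.16), the first enzyme of heme synthesis, and 3 were lower, with Coq9 at -0.84, Coq3 at -0.64 and Urod at -0.36. A list of carriers, channels and coupling proteins of mitochondria held 21 genes. Of these 1 was higher, Higd2a (0.72), and 2 were lower, Aifm1 (-1.13) and Slc25a5 (-0.48), an ADP/ATP carrier. Higd2a and Aifm1 stand in that list without being carriers or channels. Assembly factors had 2 higher, Lrpprc (0.93) and Coa6 (0.91), and 2 lower, Uqcc2 (-1.03), which serves complex III, and Acad9 (-0.44), which serves complex I. The medians of these lists at 21 days ran from -0.19 to 0.15, beside 0.04 for all probe sets.

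Neither Atpif1 nor Cyc1, nuclear genes of complexes V and III outside the naming rule, was called at 21 days, and Atp5b, Ndufa4 and Uqcrfs1 have no probe set with a single symbol here. Markers of other cells at 21 days against untreated islets were mostly not called. Leukocyte markers had 1 of 51 called lower (median -0.12), endothelial markers 1 higher and 3 lower of 16, fibroblast markers 2 higher of 19, and duct markers none of 13. Of the beta cell genes 4 of 27 were lower, and Ins2 had a mean signal of 13.82 in untreated islets and 13.72 at 21 days. Leukocyte means on single arrays reached 8.18 at 6 days off and 8.00 at 2 h. Without the 4 arrays richest in leukocyte markers 58 of the 73 calls were kept. The comparisons of 24 h and of 21 days with untreated islets, of 21 days with 24 h and of 4 days off with 21 days hold none of these arrays. Their changes could not move in that fit, only the estimate of the spread. For calls in those comparisons it therefore says nothing about leukocyte RNA.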

How the data were processed

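RNA of 27 arrays in 9 groups of 3 was analysed, with groups taken from the labels. The deposited values are log2 signals made by the authors with RMA, per the submitters' processing notes; no RMA version or setting is given in the sources used here. They were used without further scaling. Of 12488 probe sets all but 66 Affymetrix controls, hence 12422, entered the tests. Of them 10833 have 1 gene symbol in the platform annotation, and 10 probe sets with several symbols that include a member were not used. Of the 71 members 19 have more than 1 probe set. Of the probe sets chosen, 18 carry a suffix that marks relaxed rules of probe choice, only some of them for probes shared between transcripts. Those of Sdhb, Uqcrc2, Atp5d, Cox4i1, Cox6a1 and Ndufb2 are among the 18.

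Tests used lmFit and eBayes of limma 3.58.1 (R 4.3.3) over 9 group means, two-sided, with Benjamini-Hochberg adjustment over all probe sets of a comparison. Errors are SE of that fit, or SD where stated. The number of arrays limits the precision. Genes named are members called in any of 11 comparisons, the 3 largest rises and falls in each, a panel of symbols, and, of the related lists, the called genes; not all are printed. The members, lists and settings were chosen with earlier results of these data known. The fit was tested on simulated data. Motifs were searched on both strands of RefSeq promoters of GRCm38.p6; protein sequences were not used here. Settings tried were centring, quantile normalization, a filter on dim probe sets, a trend and robust variance, array weights, the 6 arrays compared, a replicate block, averaging each gene's probe sets, marker and Gapdh covariates, leaving out arrays, and a 2-fold minimum.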

Additional observations from a re-analysis of the deposited data

Results flagged for a closer look

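Members whose change against untreated islets differed between treatment times, by limma's direct test of the 2 times, are listed here; the untreated arrays cancel in each difference. Between 24 h and 8 h the change at 24 h was the higher for Atp5o by 1.05, Ndufv3 by 0.95, Ndufb11 by 0.80 and Ndufb9 by 0.77.

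Between 21 days and 24 h the change at 21 days was the lower for 19 members and the higher for Ndufa12, by 0.40. The differences in ATP synthase were -1.22 for Atp5e, -1.12 for Atp5c1, -1.08 for Atp5o, -0.80 for Atp5k and -0.76 for Atp5d. In complex I they were -1.36 for Ndufv3, -0.93 for Ndufb2, -0.85 for Ndufb8, -0.78 for Ndufa8, -0.77 for Ndufs3, -0.63 for Ndufv1, -0.58 for Ndufc1 and -0.50 for Ndufb9. The sizes for Atp5e and Ndufv3 are not reliable, as their 21 day means lay under the highest bacterial control mean. In complex III they were -1.81 for Uqcr11, -0.99 for Uqcrc1 and -0.73 for Uqcrq. In complex IV they were -0.99 for Cox7a2l, -0.72 for Cox4i1 and -0.58 for Cox6a1. The falls of Atp5d and Cox4i1 depended on the probe set, as another probe set of each changed in the opposite direction, called for Atp5d. Acinar marker levels differed between these 2 times, as given above, and with acinar and leukocyte means as covariates 3 of the 20 were called, while calls over all probe sets went from 2587 to 207. The other 17 had differences of -1.27 to -0.54 in that fit, and of 0.49 for Ndufa12.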

How the results depend on the processing

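Of 198 counts of called members under other settings, 139 lay within 1.5 times the count given. The 139 include counts of 0 against 0, as at 2 h in every setting, which could hardly differ. Of the 73 calls, 29 were kept whenever 1 array was left out, 5 in every setting (Ndufa6, Ndufab1 and Uqcr11 at 21 days against untreated, Atp5o and Uqcr11 at 21 days against 24 h), and none changed sign. Of these 5, Ndufa6 had an untreated mean under the highest bacterial control mean. Leaving out each array in turn gave 0 members called at 2 h, 0 to 1 at 4 h and at 8 h, 1 to 12 at 24 h and 9 to 14 at 21 days. It gave 1 to 7 for 24 h against 8 h and 14 to 26 for 21 days against 24 h. For 2, 4 and 6 days off against 21 days it gave 0 to 2, 0 to 11 and 0. For 6 days off against untreated it gave 10 to 17. Calls over all probe sets moved too in these fits, from 50 to 227 at 24 h and from 1 to 1071 at 4 days off.

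The filter on dim probe sets gave 1 call at 4 h and 0 at 2 days off, where it removed Sdha. Averaging each gene's probe sets gave 1 at 4 h, and quantile normalization 1 at 8 h and 4 at 4 days off. Centring gave 4 at 24 h and 2 for 24 h against 8 h. The fit of only the 6 arrays compared gave 0 at 24 h, for 24 h against 8 h, at 2 days off and for 6 days off against untreated, with fewer arrays to estimate the spread. Over all probe sets that fit gave 65, 0, 0 and 37 calls, where the fit of all arrays gave 171, 223, 19 and 1456. Array weights gave 32 for 21 days against 24 h, 5 at 2 days off, 24 at 4 days off and 6 at 6 days off, and their estimation gave a convergence warning. Over all probe sets they gave 4256, 625, 3360 and 1283 calls, where the unweighted fit gave 2587, 19, 746 and 34. Acinar and leukocyte covariates gave 2 at 24 h, 1 for 24 h against 8 h, 3 for 21 days against 24 h and 0 at 2 days off, with 39, 56, 207 and 1 calls over all probe sets. Without 4 arrays rich in leukocyte markers there were 1 at 4 h, 5 at 24 h, 0 at 2 days off and 5 at 4 days off. Over all probe sets that fit gave 126, 201, 0 and 605 calls. The comparisons at 4 h, 24 h and 4 days off hold none of the 4 arrays, so only the estimate of the spread could move there. The Gapdh covariate gave 1 at 4 h, 3 at 24 h, 1 for 24 h against 8 h, 0 at 2 days off and 4 at 4 days off, with 140, 119, 54, 1 and 397 calls over all probe sets. A 2-fold minimum left 3 at 24 h, 3 at 21 days, 1 for 24 h against 8 h, 5 for 21 days against 24 h, 0 at 2 and at 4 days off, and 6 for 6 days off against untreated. Why the counts moved was not tested for any of these settings.

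Changes that reversed were uncalled: Ndufaf4 at 24 h, 0.16 with marker covariates and -0.50 to 0.063 with 1 array left out; Ndufa5, 0.18 for 24 h against 8 h and 0.10 at 2 days off with the Gapdh covariate; Atp5l at 2 days off, 0.10 without the 4 arrays and -0.64 to 0.10 with 1 array left out; and Ndufa6 at 6 days off against 21 days, 0.0092 with marker covariates. The replicate block kept 72 of the 73 calls and lost Cox6a2 at 24 h. Deviations of arrays with the same number correlated from -0.46 to 0.51, and 12 of 27 arrays were closest to their own number. The labels do not say whether the numbers pair the samples, and these values cannot decide it.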
